A study of Homo sapiens with 6 samples.

Results

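The genes described here are the human zinc finger genes whose symbol is ZNF followed by a number and whose mean level over all 6 libraries was at least 2 FPKM (fragments per kilobase of exon and per unit of sequencing depth). Of 479 genes with such a symbol among the 58735 genes listed, 177 met this rule, 67 of them on chromosome 19 and 110 on 19 other chromosomes. The mean over both groups chose the members, and the difference between the groups did not enter the rule. MUM2B cells, a line that the labels give as melanoma, carried either a stable LACTB overexpression vector (3 libraries) or a stable empty vector (3 libraries). All cells grew in RPMI medium with serum, and the labels name no drug or other agent. The labels state neither the promoter of the vector nor whether each group was a clone or a pool, nor whether the replicates were separate cultures. The p-values therefore cover the spread among 3 libraries a group, part or all of which may be technical.

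Most ZNF genes encode proteins with an array of C2H2 zinc fingers, each of which holds a zinc ion between a pair of cysteines and a pair of histidines and can read a few bases of DNA. The largest class in mammals joins its fingers to a KRAB domain. That domain recruits the scaffold protein TRIM28, which brings the histone methyltransferase SETDB1, HP1 proteins and histone deacetylases, so that the bound DNA, often a transposable element, is silenced. Genes of this class arose by repeated duplication, and many lie in clusters on human chromosome 19. Other ZNF genes have unrelated functions, among them activators of transcription, cofactors of chromatin enzymes, RNA-binding proteins, a ribosome-associated ubiquitin ligase and a LIM-domain protein of the actin cytoskeleton.

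LACTB, a serine beta-lactamase-like protein of mitochondria, stood at 174, 169 and 161 FPKM in the LACTB libraries and at 3.81, 3.39 and 4.71 FPKM in the empty vector libraries, so every library matched its label. The libraries held 16978799 to 18395631 reads in genes. Empty vector replicate 3 stood apart from the others of its group: the chi-square of its recovered reads against theirs was 10.8 and 11.2 per degree of freedom, against 1.97 to 4.48 for the other pairs within a group. Mitochondrially encoded genes took 4.65% to 5.04% of the reads in LACTB libraries, and 5.54%, 5.62% and 3.61% in empty vector replicates 1, 2 and 3. Of 18 melanocyte genes, 17 had a mean under 1 FPKM and 3 were listed at 0 in every library (OCA2, TRPM1 and S100B). Their summed level was 14.2 to 15.9 FPKM in LACTB libraries and 12.1 to 14.4 FPKM in empty vector libraries, most of it RAB38, so these markers do not show the melanocytic origin that the label gives.

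The members were mostly low in abundance. Their mean levels ran from 2.01 to 52.9 FPKM with a median of 3.90 FPKM, 117 of 177 lay under 5 FPKM, and only 6 reached 20 FPKM. A member had a median of 378.5 reads per library, and the lowest value in any library rested on 43 reads. Just inside the threshold were ZNF529, ZNF611 and ZNF322 at 2.01, 2.01 and 2.03 FPKM, and just outside it ZNF200, ZNF222 and ZNF160 at 1.99 FPKM each. Together the members took 0.608%, 0.604% and 0.601% of the reads in the LACTB libraries and 0.541%, 0.550% and 0.567% in the empty vector libraries. The LACTB libraries were all above the empty vector libraries in this share.

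Zinc finger genes were more often higher than lower in LACTB cells, by small amounts. Of 177 members, 55 rose (31.1%) and 12 fell (6.78%), while 110 passed no threshold. The test was limma on log2(FPKM + 1) over 11875 genes averaging 1 FPKM or more, at a Benjamini-Hochberg adjusted p under 0.05. In the same fit, 14.8% of all tested genes rose and 17.2% fell. Among protein-coding genes of at least 2 FPKM, the level at which members were taken, 15.7% rose and 20.3% fell. These were more abundant, at a median of 9.35 FPKM against 3.90 FPKM for the members. Of 158 members between 2 and 10 FPKM, 31.6% rose and 6.33% fell. Of 4707 protein-coding genes between the same levels, 16.9% rose and 15.9% fell. The members' log2 fold changes had a median of 0.09 and quartiles of -0.02 and 0.25, against a median of -0.01 over all tested genes, and 124 of 177 members had a value above 0. The ratio of mean FPKM reached 1.5 in 5 members that were higher and in 3 that were lower, and 0 members reached a factor of 2. The members that were called changed by a median of 0.32 on the log2 scale, and the called genes of the whole table by 0.31.

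In 69 members (39.0%) the lowest LACTB library exceeded the highest empty vector library, and in 19 (10.7%) the groups were apart the other way, where 22.3% and 25.1% of all tested genes did so. Without empty vector replicate 3, 47 members rose and 11 fell, when 12.6% and 15.2% of all tested genes did. Without LACTB replicate 2 the number of members that rose was 33, with 9.53% of all tested genes rising. The difference between the members' share and the background was not tested.

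The shift was of like size in each LACTB library. Taken per library, the median member lay 0.09, 0.10 and 0.10 above the empty vector mean on the log2(FPKM + 1) scale in LACTB replicates 1, 2 and 3. In the empty vector libraries it lay at -0.007, -0.001 and 0.02 against their own mean. All tested genes gave -0.01, -0.006 and -0.008 in the LACTB libraries. The members' medians in LACTB libraries lay above the range of the empty vector libraries, and the median tested gene lay slightly below 0.

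**Figure D1:**
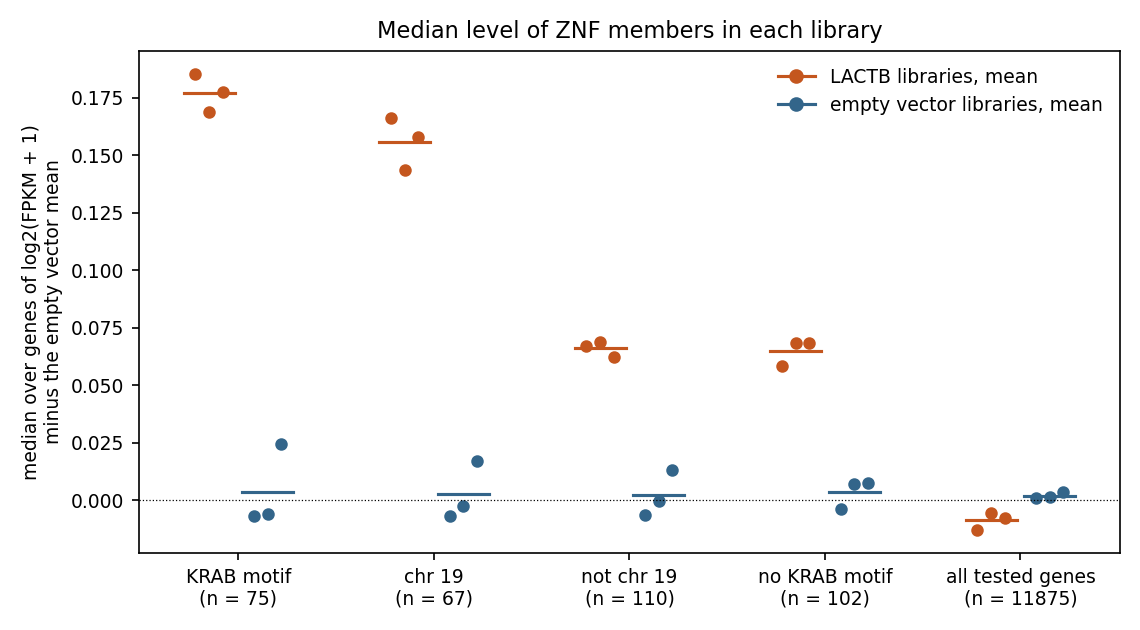
Median over genes of log2(FPKM + 1) minus the mean of the 3 empty vector libraries, for each library; points are libraries, lines are group means, LACTB left and empty vector right, and the empty vector values lie near 0 by construction. The 3 LACTB libraries sit at 0.17 to 0.19 for members with a KRAB motif and at 0.06 to 0.07 for members without one.

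Members on chromosome 19 had a higher median change than the others. Of the 67 on chromosome 19, 23 rose (34.3%) and 4 fell (5.97%), with a median log2 fold change of 0.14, and 56 of 67 values lay above 0. Of the 110 elsewhere, 32 rose (29.1%) and 8 fell (7.27%), with a median of 0.07 and 68 of 110 values above 0. The LACTB libraries gave chromosome 19 medians of 0.17, 0.14 and 0.16 against the empty vector mean, and medians of 0.07, 0.07 and 0.06 for the other members, so the chromosome 19 median was the higher in each. The difference in the share that rose was not tested. Without LACTB replicate 2, 12 chromosome 19 members and 21 others rose, and without empty vector replicate 2 it was 17 and 20. For the chromosome as a whole, of 506 other tested genes on chromosome 19 at 2 FPKM or more, 82 rose and 74 fell, with a median of 0.007.

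Chromosome and protein class are linked in this family, so the members were also divided by a KRAB motif. A motif search in the translated coding sequences found a KRAB box in 41 of the 67 chromosome 19 members and in 34 of the 110 others. With the motif, 32 of 75 members rose (42.7%) and 2 fell, at a median log2 fold change of 0.17; without it, 23 of 102 rose (22.5%) and 10 fell, at a median of 0.06. Within the KRAB class, 17 of 41 rose and 2 fell on chromosome 19 (median 0.18), and 15 of 34 rose and 0 fell elsewhere (median 0.15). Without the motif, 6 of 26 rose and 2 fell on chromosome 19 (median 0.10), and 17 of 76 rose and 8 fell elsewhere (median 0.05). In LACTB replicates 1, 2 and 3 the KRAB medians against the empty vector mean were 0.19, 0.17 and 0.17 on chromosome 19. Elsewhere they were 0.14, 0.16 and 0.18. Without the motif the medians were 0.06, 0.12 and 0.16 on chromosome 19, and 0.06, 0.04 and 0.03 elsewhere. The share that rose was 41.5% and 44.1% in the KRAB classes on chromosome 19 and elsewhere, and 23.1% and 22.4% without the motif. Neither the difference by motif nor that by chromosome was tested. The contrast in shares depends on the threshold and the filter. At an adjusted p under 0.01, 9 of 75 members with the motif and 14 of 102 without it rose, and 7.13% of all tested genes. With no filter on low values it was 14 of 75, 18 of 102 and 4.09% of all tested genes. Leaving out 1 library at a time gave 21.3% to 33.3% with the motif and 16.7% to 21.6% without it, the lowest of both without LACTB replicate 2. All tested genes gave 9.53% to 12.6% in these fits. The medians of the log2 fold change stayed between 0.14 and 0.21 with the motif and between 0.05 and 0.09 without it under all alternatives tried. The motif misses divergent boxes, so the class without it can still hold some KRAB proteins.

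**Figure D2:**
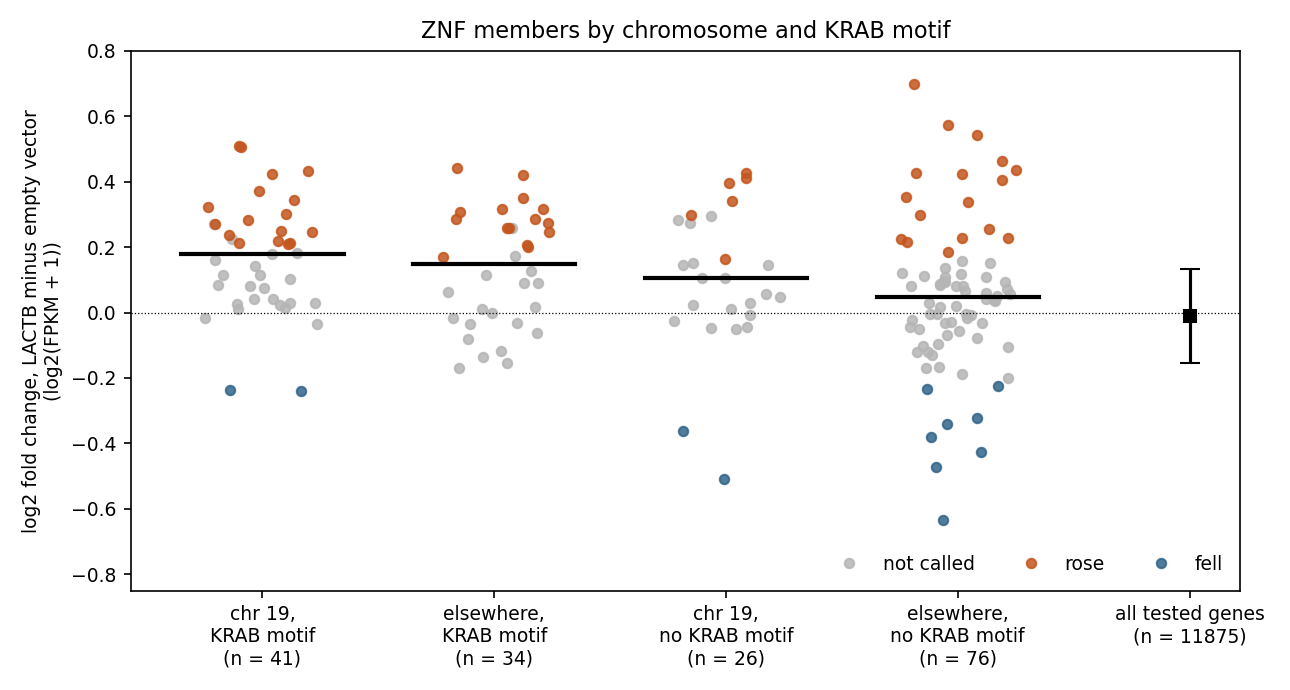
Log2 fold change (LACTB minus empty vector, log2(FPKM + 1)) of each of the 177 members by chromosome and KRAB motif; points are genes, coloured by their call, black lines are medians, and the square with its bar is the median and quartiles of all 11875 tested genes. The medians of the 4 classes are 0.18, 0.15, 0.10 and 0.05 from left to right, against -0.01 for all tested genes.

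Members with the KRAB motif had a median of 12 fingers per protein, against 7 without it, and lower levels, at a median of 3.10 against 4.62 FPKM. Of 84 members with 10 fingers or more, 31 rose (36.9%) and 3 fell (3.57%). Of 74 with 3 to 9 fingers, 19 rose (25.7%) and 6 fell (8.11%). Of 19 with up to 2, 5 rose (26.3%) and 3 fell (15.8%). Among all members the shares were 31.1% and 6.78%, and among all tested genes 14.8% and 17.2%. Differences by finger number were not tested. The SCAN domain, a dimerisation module, was found in 10 members, of which 3 rose (30%) and 0 fell. All 3 that rose, ZNF202, ZNF274 and ZNF197, also carried the KRAB motif, as did ZNF445, which was not called (limma, adjusted p = 0.0667). ZNF202 lost its call without empty vector replicate 2 or 3 or LACTB replicate 2 or 3 (limma, adjusted p = 0.051 to 0.066), and ZNF197 without any 1 library other than empty vector replicate 3 (0.087 to 0.118). The median GC content of transcripts was lower with the motif, 43.3% against 51.4% without it. Across the members, Spearman's rho of the log2 fold change with GC content was 0.07 and with exon length -0.08 (n = 177 genes, which share the same 6 libraries). With trends in GC content and exon length removed from every library, 58 members rose and 15 fell, and the medians were 0.15 on chromosome 19 and 0.07 elsewhere.

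Groups of neighbours along chromosome 19 differed in how many members rose, which was not tested. With neighbours more than 1 Mb apart put in separate groups, the 67 members formed 14 groups, 7 of them with at least 4 members. In the group between positions 52012765 and 53458261 (GRCh38), 6 of 8 members rose and 0 fell, with a median of 0.27. ZNF614, ZNF841, ZNF480, ZNF83, ZNF845 and ZNF761 rose, while ZNF766 and ZNF611 had log2 fold changes of 0.18 and 0.11 and passed no threshold. Leaving out 1 library ended the call of ZNF614 (without empty vector replicate 2 or 3 or LACTB replicate 1 or 2; limma, adjusted p = 0.0541 to 0.0851) and of ZNF845 (without empty vector replicate 1 or 3 or LACTB replicate 1 or 3; 0.067 to 0.0778). For ZNF761 this held without LACTB replicate 2 (limma, adjusted p = 0.0651). In the group at the end of the long arm, between 57351307 and 58418327, 7 of 16 rose and 2 fell, ZNF749 and ZNF584, with a median of 0.16. The group between 55476332 and 56160893 held 9 members, 0 of which matched the KRAB motif; 0 rose and 1, ZNF784, fell. In the group between 11559374 and 12633840, all 5 members carried the motif and 1 rose. Members of a group are near relatives by duplication and can share reads, so they are not independent of each other.

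The member with the smallest p in each larger group was taken as its example. On the short arm, ZNF317, a KRAB zinc finger gene, had 8.80, 9.72 and 9.41 FPKM in LACTB libraries, against 6.89, 6.60 and 6.54 FPKM in empty vector libraries. The groups did not overlap, and the gene rose 1.39-fold (log2 fold change 0.42, SE 0.05; limma, adjusted p = 0.00109). ZNF260, a gene of 13 fingers without the motif, had 6.21, 5.91 and 5.68 FPKM in LACTB libraries, against 3.81, 4.35 and 4.67 FPKM with empty vector. Every LACTB value lay above every empty vector value, a 1.39-fold rise (limma, adjusted p = 0.00623). ZNF83 rose 1.31-fold to 3.62 ± 0.0817 FPKM with LACTB, against 2.76 ± 0.0711 FPKM with empty vector (SD, n = 3 each; limma, adjusted p = 0.00534). ZNF329 rose 1.39-fold to 3.01 ± 0.175 FPKM, against 2.16 ± 0.0908 FPKM (limma, adjusted p = 0.00658). ZNF791 rose 1.20-fold, to 5.94 ± 0.203 FPKM against 4.96 ± 0.201 FPKM (limma, adjusted p = 0.0154), a call lost without LACTB replicate 2 (adjusted p = 0.0642). The other 2 examples, ZNF428 and ZNF784, fell and are described with the falls.

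**Figure D3:**
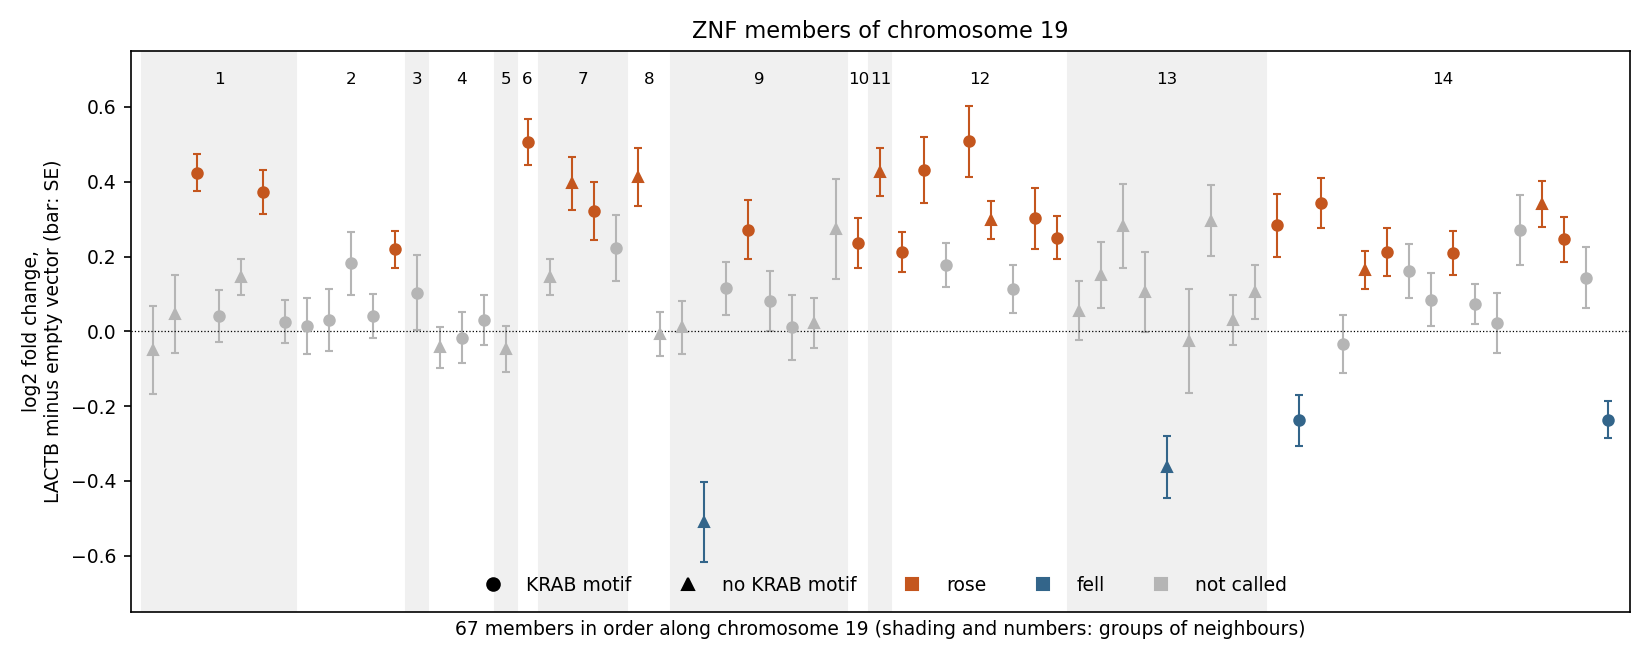
Log2 fold change (LACTB minus empty vector, bar: SE) of the 67 chromosome 19 members in order along the chromosome; circles carry a KRAB motif, triangles do not, colours give the call, and shading and numbers mark the 14 groups of neighbours. Group 12 holds 6 risen members of 8, whereas group 13 holds none that rose.

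The largest rises, ranked by the change in log2(FPKM + 1), were shared between KRAB genes and genes that did not match the motif. By ratio of means the order differed, with ZNF480 at 1.62 and ZNF319 at 1.59 above ZNF598 at 1.53. ZNF503, a transcriptional repressor of the NET family without a classical finger array, had 3.15, 3.23 and 3.79 FPKM in LACTB libraries, against 2.14, 1.597 and 1.41 FPKM with empty vector. Every LACTB value was above every empty vector value. The ratio of means was 1.98 (log2 fold change 0.70, SE 0.11; limma, adjusted p = 0.00399).

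ZNF598, the ubiquitin ligase that marks collided ribosomes, had 17.3, 18.1 and 18.8 FPKM in LACTB libraries and 13.0003, 11.5 and 10.9999 FPKM in empty vector libraries. The groups were separate, and the gene rose 1.53-fold (log2 fold change 0.57, SE 0.07; limma, adjusted p = 0.000998). ZNF319 had 4.95, 5.36 and 5.42 FPKM with LACTB, against 3.37, 3.49 and 3.01 FPKM with empty vector, 1.59-fold higher (limma, adjusted p = 0.00105). Its exons overlap those of USB1 on the opposite strand, which the files cannot separate. The use of strand in the counting is not given in the sources used here.

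ZNF480 and ZNF302, KRAB zinc finger genes of chromosome 19, rose 1.62-fold and 1.51-fold. ZNF480 had 3.61, 3.65 and 2.99 FPKM in LACTB libraries, against 1.79, 2.32 and 2.21 FPKM in empty vector libraries (limma, adjusted p = 0.00726). ZNF302 had 7.38, 7.16 and 6.59 FPKM with LACTB, against 4.47, 4.51 and 5.01 FPKM with empty vector (limma, adjusted p = 0.00122). In both genes the groups did not overlap. ZNF841, also a KRAB gene of chromosome 19, rose 1.47-fold to 3.92 ± 0.136 FPKM, against 2.66 ± 0.403 FPKM (SD, n = 3 each; limma, adjusted p = 0.0102), and its exons overlap those of ZNF432 on the same strand. ZNF777, a KRAB gene of chromosome 7, stood at 4.43 ± 0.323 FPKM with LACTB and at 2.997 ± 0.110 FPKM with empty vector.

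The remaining 3 of the 10 largest rises carry no KRAB motif. ZNF697, on chromosome 1, had 10.1, 10.0 and 10.4 FPKM in LACTB libraries, against 7.18, 7.24 and 6.90 FPKM with empty vector. Its 2 groups were narrow and far apart, and its adjusted p of 0.000349 (limma) was the smallest of the 55 that rose. ZNF768, whose protein binds a sequence found in ancient MIR repeats, rose 1.40-fold to 11.3 ± 1.29 FPKM, against 8.10 ± 0.698 FPKM. ZNF770 rose 1.38-fold to 14.6 ± 0.669 FPKM, against 10.6 ± 0.648 FPKM. Among risen members named after their values were seen, ZNF473, which takes part in the 3' end processing of histone mRNAs, rose 1.48-fold to 3.84 ± 0.301 FPKM, against 2.60 ± 0.0785 FPKM; its exons overlap those of VRK3 on the opposite strand. ZNF408, a gene mutated in an inherited disease of the retinal vessels, rose 1.42-fold to 6.45 ± 0.640 FPKM, against 4.55 ± 0.243 FPKM. Of the 55 members that rose, 8 have exons that overlap another gene of at least 1 FPKM. So do 0 of the 12 that fell and 21 of all 177 members.

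**Figure D4:**
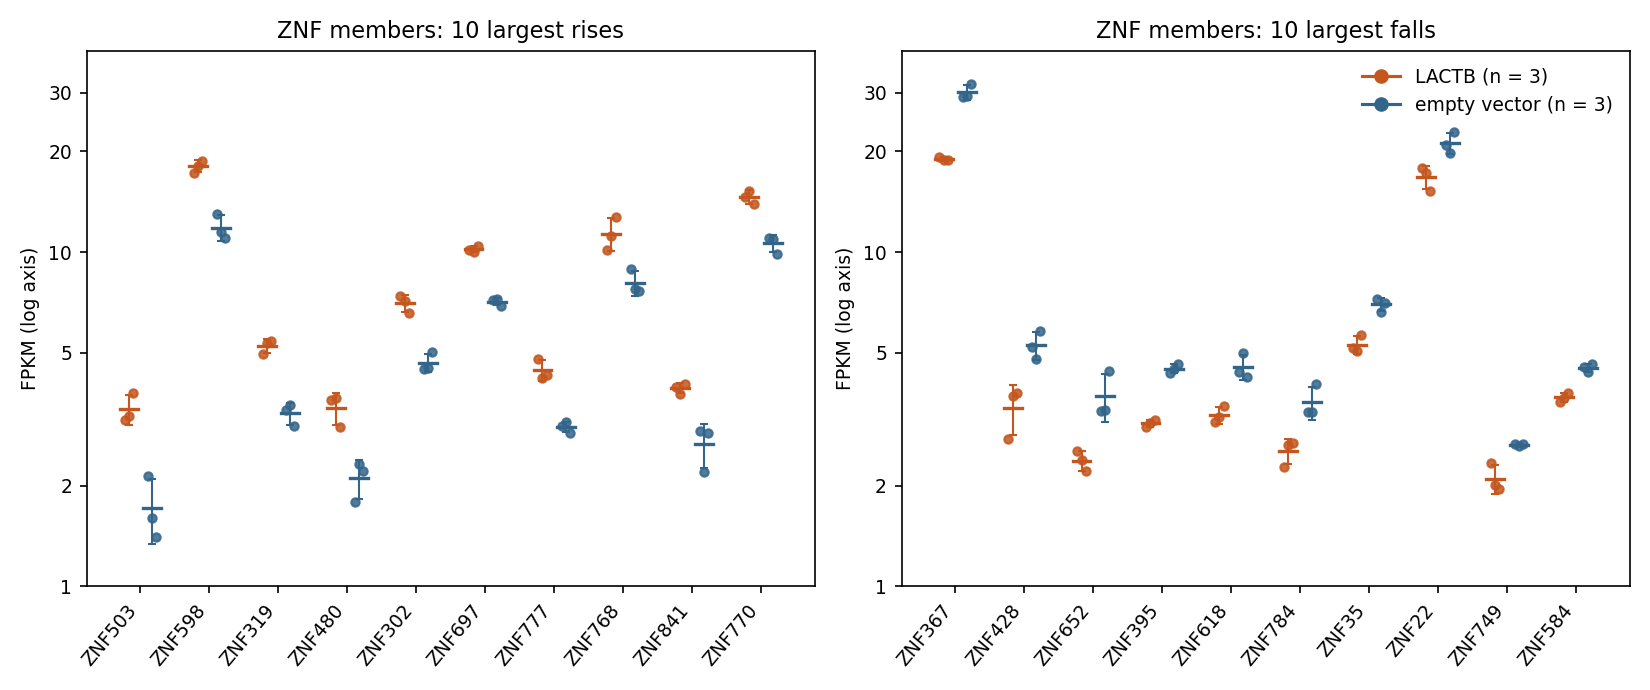
FPKM (log axis) of the 10 members that rose most and the 10 that fell most; points are libraries, horizontal lines means and bars SD, with LACTB left of empty vector for each gene. ZNF503 shows the largest ratio upward and ZNF367 the largest downward, and no pair of groups overlaps, as the rule for naming these genes requires.

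The falls were fewer, and 10 of the 12 fallen members did not match the KRAB motif. ZNF367, on chromosome 9, fell most, with 19.3, 18.9 and 18.9 FPKM in LACTB libraries, against 29.05, 29.3 and 31.8 FPKM with empty vector. The LACTB libraries were close to each other and all far below the others. It was 1.58-fold lower (log2 fold change -0.63, SE 0.05; limma, adjusted p = 0.000138). ZNF395, a DNA-binding protein that hypoxia is known to induce, had 2.999, 3.08 and 3.15 FPKM with LACTB, against 4.34, 4.47 and 4.63 FPKM with empty vector, and was 1.46-fold lower (limma, adjusted p = 0.00109). ZNF652, a repressor that works with the corepressor CBFA2T3, had 2.53, 2.39 and 2.21 FPKM in LACTB libraries, against 3.34, 3.37 and 4.41 FPKM with empty vector. Empty vector replicate 3 was the highest library, and without it the gene still fell (limma, adjusted p = 0.0122; 0.0109 with all libraries).

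ZNF428 and ZNF784, chromosome 19 genes without the motif, were 1.54-fold and 1.40-fold lower. ZNF428 had 2.76, 3.71 and 3.79 FPKM in LACTB libraries, against 5.20, 4.80 and 5.79 FPKM in empty vector libraries (limma, adjusted p = 0.0117). ZNF784 had 2.28, 2.65 and 2.67 FPKM with LACTB, against 3.31, 3.32 and 4.02 FPKM with empty vector (limma, adjusted p = 0.0164). LACTB replicate 1 was the lowest library in both genes. Of the others that fell, ZNF618 was 1.40-fold lower at 3.25 ± 0.186 FPKM against 4.54 ± 0.397 FPKM, ZNF35 1.32-fold lower at 5.29 ± 0.326 FPKM against 6.97 ± 0.308 FPKM, and ZNF22 1.26-fold lower at 16.8 ± 1.34 FPKM against 21.2 ± 1.56 FPKM (LACTB against empty vector, SD, n = 3 each). The KRAB genes that fell were ZNF584 and ZNF749. ZNF584 stood at 3.68 ± 0.110 FPKM with LACTB and 4.51 ± 0.123 FPKM with empty vector (limma, adjusted p = 0.011). ZNF749 stood at 2.10 ± 0.212 and 2.65 ± 0.0188 FPKM in the same order (limma, adjusted p = 0.0361). Its call was lost on leaving out any 1 empty vector replicate and without LACTB replicate 2 or 3 (adjusted p = 0.0782 to 0.113). The last 2 of the 12, ZNF76 and ZNF292, were named after their values were seen. ZNF292 stood at 3.06 ± 0.247 FPKM with LACTB and 3.78 ± 0.338 FPKM with empty vector (limma, adjusted p = 0.0488). It passed the threshold with LACTB replicate 1 left out, and missed it on leaving out any other library (0.0541 to 0.141).

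The 250 bases before the annotated starts of ZNF503, ZNF598, ZNF302 and ZNF367 are shown because these are the 2 largest rises, the KRAB gene of chromosome 19 with the smallest p among the 10 largest rises, and the largest fall. The bases are from RefSeq (GRCh38.p14), written 5' to 3' on the strand of the gene, and ZNF503 is given at the first of its 2 listed starts. Capitals mark matches on either strand to the GC box GGGCGG, the ETS core CCGGAAG, the cyclic AMP response element TGACGTCA and the ATF4 composite element TGATGNAA.
ZNF503 (chr10:75401917-75402166, minus strand): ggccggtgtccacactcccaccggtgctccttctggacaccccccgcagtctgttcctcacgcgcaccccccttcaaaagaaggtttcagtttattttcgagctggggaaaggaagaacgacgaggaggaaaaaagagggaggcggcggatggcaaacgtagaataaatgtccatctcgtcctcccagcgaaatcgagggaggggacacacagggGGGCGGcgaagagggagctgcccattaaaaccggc
ZNF598 (chr16:2009822-2010071, minus strand): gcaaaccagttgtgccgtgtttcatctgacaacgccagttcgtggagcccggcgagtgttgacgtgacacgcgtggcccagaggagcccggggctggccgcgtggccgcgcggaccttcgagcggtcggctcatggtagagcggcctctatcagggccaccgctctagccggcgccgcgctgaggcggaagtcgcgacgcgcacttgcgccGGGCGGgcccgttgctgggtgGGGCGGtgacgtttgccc
ZNF302 (chr19:34677428-34677677, plus strand): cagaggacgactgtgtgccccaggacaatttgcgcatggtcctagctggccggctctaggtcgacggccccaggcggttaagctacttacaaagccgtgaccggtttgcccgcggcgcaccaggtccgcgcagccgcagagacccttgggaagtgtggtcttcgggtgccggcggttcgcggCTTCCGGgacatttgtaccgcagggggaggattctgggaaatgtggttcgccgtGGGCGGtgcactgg
ZNF367 (chr9:96418371-96418620, minus strand): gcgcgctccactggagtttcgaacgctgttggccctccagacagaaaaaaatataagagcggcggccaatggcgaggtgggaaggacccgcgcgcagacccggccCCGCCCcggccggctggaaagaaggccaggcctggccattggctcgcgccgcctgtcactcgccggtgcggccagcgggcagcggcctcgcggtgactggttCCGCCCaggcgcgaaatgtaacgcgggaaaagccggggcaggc

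The GC box stood once in the window of ZNF503, 2 times in those of ZNF598 and ZNF367, and once in that of ZNF302, which also held an ETS core. None of the 4 windows held either of the other motifs, and no marked matches overlap. Promoter windows were matched by symbol for 149 of 177 members. The GC box was found in 67.8% of them, against 69.0% of the 8350 matched windows of tested genes and 42.3% of all 27305 windows. The ETS core was found in 31.5% of members' windows, against 17.6% of those of tested genes and 8.82% of all. It stood in 24 of 63 windows of members with the KRAB motif and 23 of 86 without it. By call, 17 of 46 windows of members that rose held the ETS core, against 2 of 9 of those that fell and 28 of 94 of those not called. The ATF4 composite element was in 2 of 149 windows and the cyclic AMP response element in 7. A match of letters does not show that a factor binds there.

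Of the 4 most abundant members, 2 rose. ZNF185, a LIM-domain protein associated with actin filaments and named for a finger that is not of the C2H2 kind, was the most abundant. It had 59.6, 58.5 and 60.3 FPKM in LACTB libraries, against 46.7, 46.9 and 45.2 FPKM in empty vector libraries. The groups were far apart compared with their spread, a 1.28-fold rise (log2 fold change 0.35, SE 0.04; limma, adjusted p = 0.000646). ZNF622, a factor of late maturation of the large ribosomal subunit, known best from its yeast counterpart, had 39.7, 45.8 and 41.8 FPKM with LACTB, against 33.5, 35.2 and 37.4 FPKM with empty vector. It rose 1.20-fold (limma, adjusted p = 0.0233), a call lost without empty vector replicate 1 or 2 or LACTB replicate 2 or 3 (adjusted p = 0.0589 to 0.0722). ZNF146, a chromosome 19 gene whose protein is almost wholly made of fingers, stood at 44.4 ± 1.18 FPKM with LACTB and 40.1 ± 2.10 FPKM with empty vector (limma, adjusted p = 0.0586). Under 18 alternatives the adjusted p of ZNF146 (limma) ran from 0.0179 to 0.177, and 5 of them called the gene. The smallest came without empty vector replicate 3, the highest of its group. ZNF330, a nucleolar protein, stood at 25.2 ± 0.884 and 24.3 ± 1.83 FPKM in LACTB and empty vector cells, with overlapping groups (limma, adjusted p = 0.548).

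Members were then grouped by known role. Of all 177 members 31.1% rose and 6.78% fell, and of all tested genes 14.8% and 17.2%. No role list was tested against these shares. Of 9 members with roles in RNA or ribosomes, 3 rose and 0 fell, and the list's median was 0.05 on the log2 scale. These were ZNF598, ZNF622 and ZNF326, the last a subunit of the DBIRD complex that links splicing to transcription, at 5.99 ± 0.151 FPKM with LACTB and 4.99 ± 0.427 FPKM with empty vector (limma, adjusted p = 0.0298). The call of ZNF326 was lost without any library other than empty vector replicate 3 (adjusted p = 0.059 to 0.0992). ZNF346, which binds double-stranded RNA, stood at 5.11 ± 0.0734 and 5.69 ± 0.0815 FPKM in LACTB and empty vector cells and missed the threshold (limma, adjusted p = 0.0549), although its groups did not overlap.

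Of 10 cofactors of chromatin enzymes, 0 were called, and their median log2 fold change was 0.007. Among all members 31.1% rose and 6.78% fell, and among all tested genes 14.8% and 17.2%. The smallest limma adjusted p was 0.171, that of ZNF644, a partner of the G9a histone methyltransferase, at 10.1 ± 0.369 FPKM with LACTB and 10.98 ± 0.569 FPKM with empty vector. ZNF687 and ZNF592, which bind the chromatin reader ZMYND8, stood at 3.87 ± 0.311 against 4.199 ± 0.0779 FPKM and at 6.48 ± 0.427 against 6.90 ± 0.401 FPKM, and ZNF827 at 5.70 ± 0.243 against 5.34 ± 0.274 FPKM. ZNF217, a corepressor subunit amplified in breast tumours and named after its values were seen, stood at 12.6 ± 0.683 and 12.4 ± 0.950 FPKM in LACTB and empty vector cells, with overlapping groups. Of the 19 KRAB genes listed for their binding to transposable elements, 4 were members and 1 rose. That gene, ZNF84, stood at 2.94 ± 0.306 FPKM with LACTB and 2.16 ± 0.115 FPKM with empty vector (limma, adjusted p = 0.0175). The other 3 passed no threshold: ZNF267 stood at 3.14 ± 0.139 FPKM with LACTB and 3.61 ± 0.248 FPKM with empty vector, ZNF544 at 4.495 ± 0.528 and 3.97 ± 0.292 FPKM, and ZNF611 at 2.13 ± 0.117 and 1.895 ± 0.0822 FPKM.

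Of 25 members in a wider list of genes with a known role, 6 rose and 3 fell, with a median of -0.05 on the log2 scale. The shares were 31.1% and 6.78% for all members and 14.8% and 17.2% for all tested genes. Besides those above, ZNF384 and ZNF274 rose and ZNF76 fell, all named after their values were seen. ZNF274, which brings SETDB1 to the ends of other zinc finger genes, stood at 5.25 ± 0.348 FPKM with LACTB and 4.26 ± 0.220 FPKM with empty vector, 1.23-fold higher (limma, adjusted p = 0.0203). That call was lost without empty vector replicate 1 or 2 or LACTB replicate 2 (adjusted p = 0.0617 to 0.0708). ZNF384 was 1.18-fold higher (limma, adjusted p = 0.0171, and 0.0676 without LACTB replicate 2). ZNF76, a close relative of the promoter-binding factor ZNF143, was 1.22-fold lower (limma, adjusted p = 0.0229, and 0.0565 to 0.0712 without empty vector replicate 1 or 2 or LACTB replicate 1 or 3).

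Of 29 tested genes that KRAB proteins work through or that act with them on chromatin, 1 rose and 9 fell, with a median log2 fold change of -0.07. Among all tested genes 14.8% rose and 17.2% fell, and among protein-coding genes of at least 2 FPKM 15.7% and 20.3%, and the difference from these shares was not tested. TRIM28, the scaffold that KRAB domains bind, had 97.3, 106.9 and 106 FPKM in LACTB libraries, against 117.5, 112.8 and 106.4 FPKM in empty vector libraries, and the groups overlapped (limma, adjusted p = 0.157). SETDB1 stood at 3.32 ± 0.051 FPKM with LACTB and 3.31 ± 0.259 FPKM with empty vector. The histone deacetylase gene HDAC1 had 54.6, 52.9 and 54.3 FPKM with LACTB, against 66.7, 66.1 and 69.9 FPKM with empty vector, 1.252-fold lower (limma, adjusted p = 0.00135). The histone H3.3 genes H3F3B and H3F3A were 1.27-fold and 1.28-fold lower, and each has near-identical copies that can share reads. The NuRD helicase gene CHD3 was 1.33-fold lower, at 17.1 ± 0.400 FPKM against 22.8 ± 1.88 FPKM. UHRF1, a reader of methylated DNA, was 1.28-fold lower. HDAC2, SUMO2, CBX3 and ATRX were called lower too, but each lost its call without at least 1 library (limma, adjusted p = 0.05 to 0.134). These were LACTB replicate 3 for HDAC2, empty vector replicate 1 for SUMO2, empty vector replicate 1 and LACTB replicates 2 and 3 for CBX3, and empty vector replicates 2 and 3 and LACTB replicates 2 and 3 for ATRX. The single gene that rose, CBX5, encodes an HP1 protein and stood at 11.8 ± 0.343 FPKM with LACTB and 9.99 ± 0.490 FPKM with empty vector (limma, adjusted p = 0.0145, and 0.0511 without LACTB replicate 2).

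The tilt toward higher levels was also found in ZNF genes that the threshold left out. Of 104 ZNF genes between 1 and 2 FPKM, 35 rose (33.7%) and 0 fell, with a median log2 fold change of 0.15. All 104 were in the same fit, in which 14.8% of all tested genes rose and 17.2% fell. Of the 11875 tested genes, 1758 rose and 2038 fell. The 9892 of them at 2 FPKM or more held 1511 of these rises and 1903 of these falls. Falls were therefore a smaller share of tested genes under 2 FPKM than of those above it. The 17.2% is thus too high a background for the 0 falls, and the difference was not tested. The other 198 ZNF genes lay under 1 FPKM and were not tested, and 55 of these were listed at 0 in every library. Other zinc finger families, chosen after the values were seen, gave smaller sets. Of 26 ZBTB genes at 2 FPKM or more, 3 rose and 4 fell, with a median of 0.02. Of 10 ZSCAN and ZKSCAN genes, 3 rose and 1 fell, with a median of 0.11. Of 5 ZFP genes, 1 rose and 0 fell, with a median of 0.09, and all 5 had a log2 fold change above 0. None of these families was tested against the ZNF genes.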

How the data were processed

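RNA sequencing measured 6 libraries of MUM2B cells. The authors deposited 1 table of FPKM values per library for 58735 genes. Per the submitters' processing notes, the tools were DESeq2 1.16.1, featureCounts 1.5.0-p3 and HISAT2 2.0.5 and the build GRCh38, in no stated order or role. Multiplied by exon length and divided by the worth of 1 read, the deposited FPKM values came out whole (100% within 0.1 reads), so the reads were recovered. Near-identical genes can share reads.

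Gene positions and exon lengths came from GENCODE 29; all 58735 IDs matched. Fits used limma 3.58.1 in R 4.3.3 (eBayes, trend on) with log2(FPKM + 1), which understates changes of low genes; fold values are ratios of mean FPKM. Fingers, KRAB and SCAN motifs were searched in the longest coding sequence, translated with Biopython 1.88; the KRAB motif was widened by hand on known KRAB genes it had missed, without their fold changes. A finger was 2 cysteines 2 to 4 residues apart, 12 residues, and 2 histidines 3 to 5 residues apart.

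The genes named were the 10 largest rises and 10 largest falls that were called without group overlap, the 4 most abundant members, the smallest p in each chromosome 19 group of at least 4 members, and up to 4 per role list. Members and lists were chosen with earlier results of these data known, and finger classes, other families and promoter motifs after values were seen. Alternatives were a pseudocount of 0.1, other filters, TPM, median-of-ratios scaling, quantile normalization, removal of GC and length trends, eBayes without trend or robust, voom on recovered reads, a replicate block, an adjusted p under 0.01 and omission of single libraries. The fit was also run on simulated counts, with the same dispersion for every gene and no outlying library. That run does not bear on the spread that empty vector replicate 3 brings.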

Additional observations from a re-analysis of the deposited data

How the results depend on the processing

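At an adjusted p under 0.01, 23 members rose and 4 fell (55 and 12 in the main fit), and 7.13% and 8.45% of all tested genes. With no filter on low values (30629 genes tested) it was 32 and 6 members, and 4.09% and 4.58% of all tested genes. The replicate block gave 33 and 8 members (risen: 15 of 75 with the KRAB motif, 18 of 102 without), and 9.73% and 11.1% of all tested genes. On TPM it was 41 and 6 members, and 10.0% and 8.06% of all tested genes. On chromosome 19 (23 rose, 4 fell) these settings gave 10 and 0, 13 and 1, 12 risen under the block, and 1 fallen on TPM. Elsewhere (32 rose, 8 fell) they gave 13 and 4, 19 and 5, 21 and 5, and 5 fallen on TPM. Of the KRAB partners, 0 rose and 5 fell at the stricter threshold, under the block and on TPM. The median log2 fold change, 0.14 on chromosome 19 and 0.07 elsewhere, was 0.18 and 0.11 on TPM, 0.16 and 0.080 with median-of-ratios scaling, 0.16 and 0.089 at pseudocount 0.1, and 0.17 and 0.090 by voom; quantile normalization gave 0.064 elsewhere. On recovered reads, voom called 1991 genes higher and 2327 lower, 57 and 14 members among them. Leaving out 1 library at a time, 33 to 47 members rose and 9 to 11 fell, 12 to 19 and 3 to 4 on chromosome 19, 20 to 28 and 6 to 8 elsewhere, and 0 to 1 and 6 to 9 of the partners, with medians of 0.12 to 0.16 and 0.050 to 0.079. In these fits 9.53% to 12.6% of all tested genes rose and 11.7% to 15.2% fell. Same-numbered libraries had correlations of -0.13, 0.02 and -0.04 in their deviations from the group means, so the replicate numbers do not pair them. A stricter threshold on the adjusted p cannot raise the counts. For the other settings, omission of single libraries among them, the cause of the change was not tested. Of 1457 single-gene values, 1296 kept direction and side of the threshold, 133 lost the call, 16 gained it and 12, all of 6 KRAB partners that were not called, changed sign. On the log2 scale CBX1 was 0.001121 on TPM and 0.000607 after quantile normalization, MGA 0.034 with GC and length trends removed and 0.0088 on TPM, PPHLN1 0.0061 with those trends removed, and SETDB1 -0.0064 after quantile normalization. Leaving out 1 library at a time, MGA ran from -0.035 to 0.022, PIAS1 from -0.083 to 0.013, PPHLN1 from -0.050 to 0.013, SETDB1 from -0.040 to 0.047 and SUV39H2 from -0.11 to 0.0065. Low members rest on few reads, down to 43 in a library, and differences under the spread between 3 libraries were not detectable.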
